A study of Homo sapiens with 8 samples.

Results

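Accessible chromatin around TGM2, ASB2 and HIC1 was compared in U-937 cells given all-trans retinoic acid (ATRA), the compound Corin, or both. The 3 genes were named as retinoid targets, and regions were assigned to them by position alone. Every peak that overlapped the body of one of these genes, or the 50 kb on either side of it, was a member. Overlapping peaks of the 4 deposited lists were joined into 161291 regions over the genome, of which 78 belong to these genes: 31 to TGM2, 28 to ASB2 and 19 to HIC1.

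U-937 is an established human monocytic line from a histiocytic lymphoma, labelled here as acute myeloid leukaemia cells. ATAC-seq uses a transposase to tag DNA that nucleosomes leave free, and was done after 24 h in 4 groups of 2 samples: DMSO as the vehicle, ATRA at 0.1 µM, Corin at 0.1 µM, and ATRA with Corin at 0.1 µM each. The labels do not say whether the samples of a group were separate cultures. The authors combined each group's samples into 1 peak list, so no value below has a replicate spread, no test between groups could be made, and all differences are differences between 4 lists. How many reads stand behind the lists is unknown. A higher signal from each cell and a larger share of cells with an open region cannot be told apart. A region that is missing from a list is a region without a call there, which does not show that it was closed.

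ATRA binds retinoic acid receptors (RARs), which sit on DNA with retinoid X receptors (RXRs) at pairs of hexamers. Without ligand the receptors hold co-repressors, and ligand exchanges these for co-activators. Corin inhibits the histone deacetylase and histone demethylase activities of CoREST, a co-repressor complex. TGM2 encodes transglutaminase 2, an enzyme that cross-links proteins and binds GTP, long known as a retinoid-induced gene of myeloid cells. ASB2 encodes the specificity subunit of an E3 ubiquitin ligase that sends filamins to degradation, and was found as a gene induced by retinoic acid in myeloid leukaemia cells. HIC1 encodes a zinc finger transcriptional repressor known as a tumour suppressor.

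The sequences shown first are the summit windows of the regions on which the results turn, all on the plus strand of hg38. At TGM2 they are the strongest region called with ATRA alone and missing with DMSO (40.0 kb upstream of the canonical start, chr20:38205181-38205380), the strongest such region with both compounds (17.3 kb upstream, chr20:38182490-38182689), and the ATRA summit of the shared region with the largest ratio of ATRA to DMSO (26.5 kb upstream, chr20:38191686-38191885). At ASB2 they are the strongest gained region with ATRA (8.6 kb downstream of the start, chr14:93967825-93968024) and the region with the largest ratio of ATRA to DMSO (13.7 kb downstream, chr14:93962752-93962951). At HIC1 they are windows around 2 direct repeats with a spacer of 5 bases, the DR5 arrangement that RAR and RXR bind (16.5 kb downstream, chr17:2071704-2071804, and 28.6 kb downstream, chr17:2083744-2083844). The third DR5 match of HIC1 is given as its 17 bases only (32.7 kb downstream, chr17:2087909-2087925), and it reads as the repeat on the minus strand. Capitals mark motif matches: a PU.1 match in TGM2 -40.0 kb, a C/EBP and then a PU.1 match in ASB2 +8.6 kb, and DR5 matches at HIC1.
TGM2 -40.0 kb: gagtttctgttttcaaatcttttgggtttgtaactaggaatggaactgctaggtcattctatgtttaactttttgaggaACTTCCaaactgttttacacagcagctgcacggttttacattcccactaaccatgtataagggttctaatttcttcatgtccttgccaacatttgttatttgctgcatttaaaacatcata
TGM2 -17.3 kb: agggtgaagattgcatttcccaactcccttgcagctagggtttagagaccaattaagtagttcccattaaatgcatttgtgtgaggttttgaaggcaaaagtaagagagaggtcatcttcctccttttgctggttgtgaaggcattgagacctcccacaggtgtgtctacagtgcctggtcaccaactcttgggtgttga
TGM2 -26.5 kb: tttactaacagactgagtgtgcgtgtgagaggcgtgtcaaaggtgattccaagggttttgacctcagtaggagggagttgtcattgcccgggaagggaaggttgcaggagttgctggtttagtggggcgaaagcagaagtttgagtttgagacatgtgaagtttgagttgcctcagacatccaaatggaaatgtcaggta
ASB2 +8.6 kb: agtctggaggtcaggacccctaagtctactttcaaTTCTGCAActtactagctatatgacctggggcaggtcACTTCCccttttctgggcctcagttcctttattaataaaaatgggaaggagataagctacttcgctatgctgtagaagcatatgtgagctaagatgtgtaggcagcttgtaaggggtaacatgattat
ASB2 +13.7 kb: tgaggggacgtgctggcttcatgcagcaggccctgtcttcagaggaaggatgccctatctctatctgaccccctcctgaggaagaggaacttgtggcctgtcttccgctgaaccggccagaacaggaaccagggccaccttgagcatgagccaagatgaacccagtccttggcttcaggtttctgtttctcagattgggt
HIC1 +16.5 kb: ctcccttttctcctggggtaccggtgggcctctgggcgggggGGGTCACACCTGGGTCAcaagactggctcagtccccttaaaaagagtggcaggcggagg
HIC1 +28.6 kb: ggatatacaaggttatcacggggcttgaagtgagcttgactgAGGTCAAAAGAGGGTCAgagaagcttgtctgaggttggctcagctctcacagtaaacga
HIC1 +32.7 kb: TGACCCCACTATGACCT

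The lists held 189896 to 222491 peaks, and their most frequent background, in units of read pileup, was 12.8 with DMSO, 9.12 with ATRA, 13.1 with Corin and 13.9 with both compounds. A region was called at a transcription start of 9 of 10 monocytic marker genes with DMSO, with ATRA and with both compounds, and of 10 of 10 with Corin. Marker genes of other cell types also had calls at a start: in each list 2 of 4 T cell, 3 of 4 B cell and 3 of 3 fibroblast genes, 2 or 3 of 3 epithelial genes and 0 or 1 of 4 erythroid genes. A call at a start is not a measure of expression. In the text below, fold is the authors' value for a peak over its local background, p is given as the authors' −log10 p of the strongest peak of a region, and distances run from the canonical transcription start of the gene. A region joins overlapping peaks of all lists, and its value in a list is that of the list's own strongest peak in it. In 12 of the 58 member regions called in 2 or more lists the summits lay over 200 bp apart. In 4 of these the strongest peaks of at least a pair of lists did not overlap and were joined through other peaks. Values of such regions belong to neighbouring sites.

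Of the 3 genes, TGM2 differed most between the lists in its number of calls. TGM2 lies on the minus strand of chromosome 20 at 38127385 to 38166578 (ENSG00000198959.12), and its window also reaches into RPRD1B and KIAA1755. Its 31 regions were called 15 times with DMSO, 24 times with ATRA, 13 times with Corin and 24 times with both compounds. They covered 11.0 kb with DMSO, 18.4 kb with ATRA, 11.2 kb with Corin and 19.0 kb with both. The 2 lists with ATRA thus held more regions and more open sequence here than the 2 lists without it.

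A region is called gained where a treatment list holds it and the DMSO list does not, and lost in the reverse case. With ATRA, 13 of the 24 TGM2 regions (54.2%) were gained, against 23.3% of all ATRA regions in the genome. With both compounds 12 of 24 (50%) were gained, against 16.6% of all regions of that list. With Corin alone 0 of 13 were gained, against 17.8% in the genome. Losses at TGM2 were 4 of 15 DMSO regions (26.7%) with ATRA, 2 (13.3%) with Corin and 3 (20%) with both, against genome shares of 25.4%, 28.4% and 31.6%. The gains at TGM2 exceeded the genome share in both lists with ATRA, whereas the losses with ATRA were near it. With a limit of 5 on the −log10 q of peaks, losses were 2 with ATRA, 0 with Corin and 1 with both, and with lists of equal length 1, 0 and 1. The genome shares above do not hold for these settings.

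**Figure D1:**
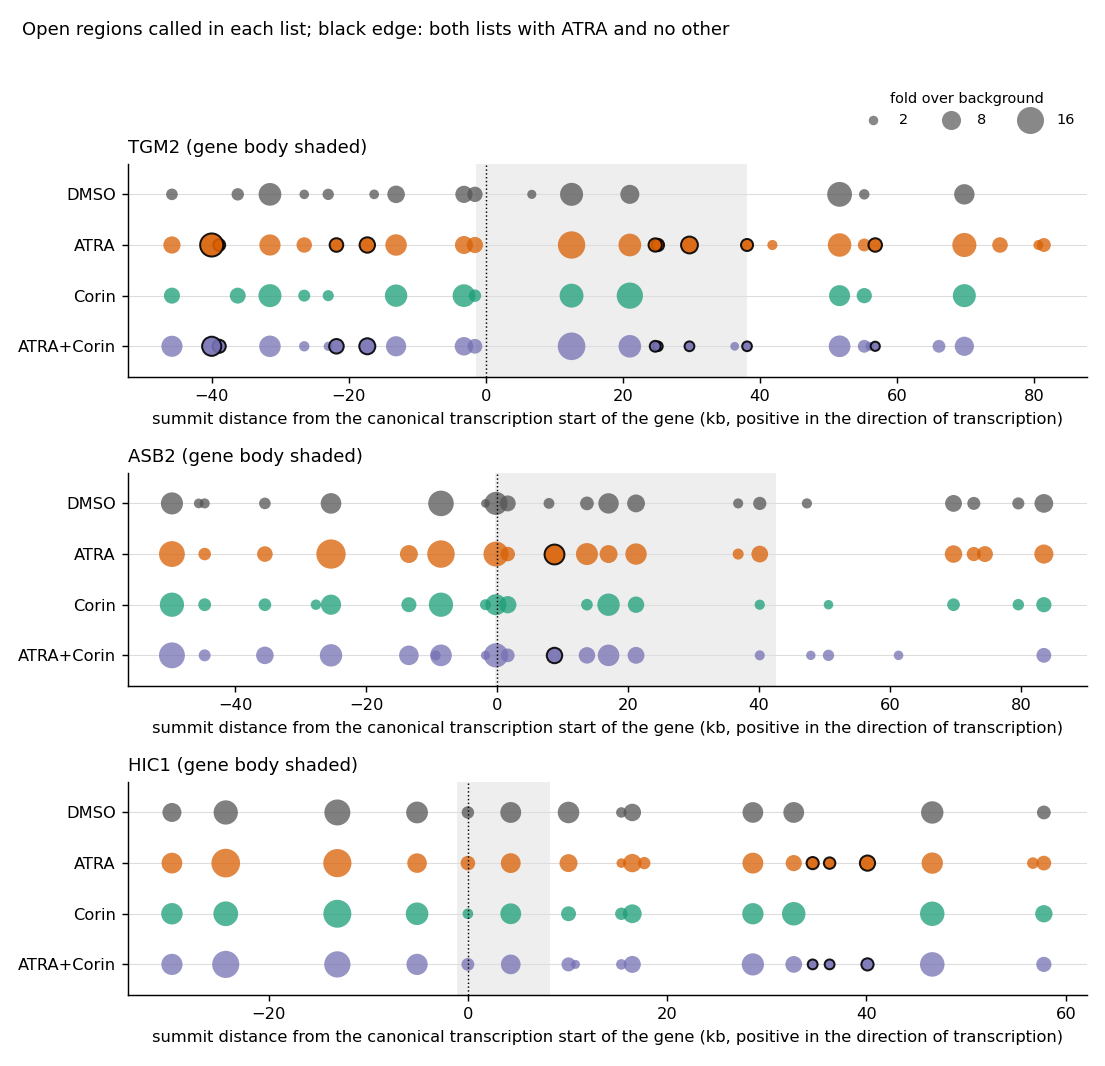
Regions called within 50 kb of TGM2, ASB2 and HIC1 in each of the 4 lists, by summit distance from the canonical transcription start (kb); the area of a point is proportional to its fold over local background and the gene body is shaded. Points with a black edge are regions called in both lists with ATRA and in no other, of which TGM2 has 9, ASB2 1 and HIC1 3.

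Of the 31 TGM2 regions, 9 (29%) were called in the ATRA list and in the combination list and in neither of the others, a pattern of 3.2% of all regions. The opposite pattern, called with DMSO and with Corin only, was held by 1 TGM2 region (3.23%), against 4.24% of all regions. Calls in all 4 lists were made for 11 regions (35.5%), against 41.1% in the genome. The remaining regions were called with ATRA only (4), with both compounds only (3), with DMSO only (2), or in every list but that of ATRA (1). Regions that followed the presence of ATRA were spread over the window, with 5 outside the gene body and 4 in or across its end.

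The strongest of these 9 regions lay 40.0 kb upstream, in intergenic sequence (chr20:38204641-38205552). It had no call with DMSO or with Corin, a fold of 11.7 (−log10 p 260) with ATRA and 8.05 (131) with both compounds. A region at 17.3 kb (chr20:38182104-38183034) had no call without ATRA either, and had folds of 5.21 (92.6) and 5.64 (136). One at 21.8 kb (chr20:38186970-38187406) had folds of 4.06 (57.5) and 4.65 (93.0). Another, 38.9 kb upstream beside the strongest, had folds of 3.09 and 3.76. The fold of the strongest was lower with both compounds than with ATRA, and that of the other 3 higher. Divided by the genome median ratio of both compounds to ATRA, 0.79, the ratios were 0.872 at 40.0 kb, 1.37 at 17.3 kb, 1.45 at 21.8 kb and 1.54 at 38.9 kb.

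Downstream of the start, the regions called in both lists with ATRA only had a higher fold with ATRA alone. The intron region 29.7 kb downstream of the start (chr20:38134930-38135869) had a fold of 6.22 (−log10 p 73.7) with ATRA and 2.11 (7.07) with both compounds. A pair of neighbouring intron regions, 24.7 and 25.1 kb downstream, had folds of 3.87 and 3.30 with ATRA, and 2.59 and 2.01 with both. The region at the end of the gene, 38.1 kb downstream, had 3.18 and 2.07, and that in the RPRD1B intron, 56.8 kb downstream, 4.01 and 1.87. All 5 had a lower fold in the combination list than in the ATRA list. The summits of the 2 lists lay, however, 352 bp apart at 29.7 kb and 561 bp apart at 38.1 kb. Divided by the genome median ratio of both compounds to ATRA, 0.79, the ratios were 0.846 at 24.7 kb and 0.769 at 25.1 kb. They were 0.428 at 29.7 kb, 0.824 at 38.1 kb and 0.589 at 56.8 kb. Of the regions called with ATRA only, the strongest was in an RPRD1B exon 75 kb downstream, with a fold of 5.32 (69.8).

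The TGM2 region with the highest −log10 p with DMSO, with ATRA and with both compounds was called in every list. It was in an intron 12.5 kb downstream of the start (chr20:38152137-38153287), with folds of 11.6 with DMSO, 16.4 with ATRA, 12.5 with Corin and 16.7 with both. Its −log10 p was 410, 1505, 472 and 1414 in the same order, which placed it in the top 11.6%, 1.16%, 11.1% and 2.55% of its lists. This region thus stood higher in rank in both lists with ATRA. The intron region 21.0 kb downstream had folds of 7.96, 11.3, 15.1 and 11.2 and −log10 p of 170, 496, 643 and 669, and was the strongest TGM2 region with Corin. Its ATRA summit lay 316 bp from its DMSO summit.

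The fold at the start of TGM2 was lowest with Corin. The only region within 1 kb of an annotated TGM2 start lay 1.6 kb upstream of the canonical one (chr20:38166628-38167311), with folds of 5.19 with DMSO, 5.76 with ATRA, 3.41 with Corin and 4.80 with both. Its −log10 p was 67.1, 258, 39.0 and 215. The pileup there, in multiples of the most frequent background of each list, was 13.6, 69.4, 12.3 and 44.8, and the local background 2.56, 12, 3.54 and 9.28. With ATRA, pileup and background were both higher than with DMSO, and the fold compares the 2. The genome median ratio of this pileup to DMSO was 1.51 with ATRA, 0.89 with Corin and 1.03 with both. Divided by these medians, the pileup ratios of this region were 3.39, 1.01 and 3.22. Its ratio of fold with Corin to DMSO, 0.657, was the lowest of the TGM2 window. The neighbouring region 3.2 kb upstream had folds of 6.51, 7.13, 11.3 and 7.53, with the ATRA summit 599 bp from that of DMSO.

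Several weak TGM2 regions had wide ratios of fold between lists. The intergenic region 26.5 kb upstream (chr20:38190852-38192057) had folds of 2.01 with DMSO, 5.24 with ATRA, 3.17 with Corin and 2.35 with both, and −log10 p of 4.08, 163, 14.3 and 33.9. These are values of neighbouring sites. The summits with DMSO and with ATRA lay 768 bp apart, and the strongest peaks with ATRA and with Corin did not overlap. Its call with DMSO was near the bottom of that list by −log10 p, at a rank of 97.8%. The region in a KIAA1755 exon, 45.8 kb upstream, had folds of 2.97, 6.52, 5.67 and 9.79, higher in all 3 treatments than with DMSO. The region in an RPRD1B intron 55.2 kb downstream had 2.4, 3.63, 5.10 and 3.64. The one 51.6 kb downstream had the opposite order, with 13.5 with DMSO, 12.1 with ATRA, 9.68 with Corin and 10.3 with both, and the one 31.5 kb upstream stayed between 9.86 and 11.6. The region 13.1 kb upstream had 6.76, 10.1, 11.0 and 8.93. The region 69.8 kb downstream had 9.09, 12.7, 11.6 and 8.11. Its strongest peak with both compounds did not overlap the strongest with DMSO and with ATRA, whose summits were 994 and 1007 bp away. Weaker peaks of these lists in the region were not compared.

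A few TGM2 regions were missing with ATRA. The region 36.2 kb upstream (chr20:38201360-38201682) had folds of 3.38 (−log10 p 27.8) with DMSO and 5.57 (84.9) with Corin and no call in either list with ATRA. It lies between the regions at 21.8 and 38.9 kb that were called in both lists with ATRA only. The region 23 kb upstream was called with DMSO, Corin and both compounds at folds of 2.83, 2.71 and 1.84. The region 16.3 kb upstream was called with DMSO only, at a fold of 2.06 (4.58), as was an intron region 6.7 kb downstream at 1.84.

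ASB2 had nearly as many calls in each of the 4 lists. It lies on the minus strand of chromosome 14 at 93934166 to 93976739 (ENSG00000100628.12), in a window shared with CCDC197, FAM181A and OTUB2. Its 28 regions were called 20 times with DMSO, 18 times with ATRA, 18 times with Corin and 19 times with both compounds. Gained were 3 of 18 (16.7%) with ATRA, 3 of 18 (16.7%) with Corin and 6 of 19 (31.6%) with both. Lost were 5 of 20 (25%) with ATRA, 5 (25%) with Corin and 7 (35%) with both. Genome shares were 23.3%, 17.8% and 16.6% for gains and 25.4%, 28.4% and 31.6% for losses. The losses were near these shares. The gains with both compounds were above their genome share of 16.6%, and 3 of these 6 were called in that list alone. Where a counterpart had to cover 50% of a region, gains were 6 with ATRA and 10 with both, and with lists of equal length losses were 2, 2 and 4. For these settings the genome shares above do not hold.

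A single ASB2 region (3.57% of 28) was called in both lists with ATRA and in no other, near the genome share of 3.2%. This region lay 8.6 kb downstream of the start and overlapped an ASB2 exon (chr14:93967771-93968355). Its fold was 8.66 (−log10 p 91.2) with ATRA and 5.23 (56.6) with both. A weak DMSO region 7.9 kb downstream, at a fold of 2.60 (7.95), lies next to it and was called in no other list. The strongest region gained with Corin was in a CCDC197 intron 13.5 kb upstream (chr14:93989758-93990573), with folds of 7.06 with ATRA, 4.97 with Corin and 8.39 with both. It was missing with DMSO only.

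Among the shared regions, the intron region 13.7 kb downstream (chr14:93962710-93963341) had the largest ratio of ATRA to DMSO. Its fold was 4.14 with DMSO, 10.6 with ATRA, 2.98 with Corin and 5.99 with both, and its −log10 p 63.5, 372, 42.7 and 241. Both lists with ATRA were above both lists without it. The neighbouring intron region 17.0 kb downstream had the smallest ratio, with folds of 9.12, 7.08, 11.0 and 10.2. These neighbours within the gene had their highest and their lowest fold in the same list, that of ATRA.

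At the canonical ASB2 start (chr14:93976039-93977225) the folds were 11.7 with DMSO, 13.7 with ATRA, 9.75 with Corin and 12.9 with both, with −log10 p of 420, 468, 288 and 545. Another start, 21.2 kb downstream, had folds of 6.98, 10.0, 5.91 and 6.22. The start 1.6 kb downstream had 5.60, 4.62, 6.59 and 4.14. The weakest, 36.8 kb downstream, was called with DMSO at 2.23 and with ATRA at 2.67 and in neither list with Corin. The canonical start and that at 21.2 kb were highest with ATRA and lowest with Corin, unlike the start at 1.6 kb. Divided by the genome median ratio to DMSO, the ATRA ratios were 0.925, 1.14 and 0.655 at these 3 starts. The Corin ratios were 0.88, 0.899 and 1.25. The canonical start with ATRA was thus below the genome median ratio.

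Outside the gene, the region in a CCDC197 exon 25.4 kb upstream had folds of 9.32 with DMSO, 18.8 with ATRA, 8.94 with Corin and 11.0 with both. The one 44.7 kb upstream had 2.24, 3.46, 3.61 and 3.13. The one 35.5 kb upstream had 2.97, 5.34, 3.54 and 6.77. Its strongest ATRA peak did not overlap the strongest with DMSO and with Corin, and the ATRA summit lay 507 bp from that of DMSO. The OTUB2 start, 49.7 kb upstream, had 10.7, 14.6, 12.9 and 14.7, and the region 8.6 kb upstream 14.3, 16.5, 12.9 and 10.3. Most of these were highest with ATRA, alone or with Corin. Divided by the genome median ratio of ATRA to DMSO, 1.26, their ATRA ratios ranged from 0.914 at 8.6 kb to 1.6 at 25.4 kb upstream. Further downstream the order was another. The region 40.1 kb downstream had 3.84, 6.13, 2.29 and 2.21, and the intergenic one 83.5 kb downstream 7.68, 8.01, 5.09 and 4.82, both lower in the lists with Corin. At 40.1 kb the strongest peak with both compounds did not overlap the strongest with ATRA. The region 1.8 kb upstream, without a call with ATRA, had 1.68 with DMSO, 2.66 with Corin and 1.85 with both.

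The ASB2 regions lost in any treatment ranked at or below the top 47.7% of the DMSO list by −log10 p. The strongest one lost with both compounds, 69.7 kb downstream in FAM181A-AS1, had folds of 6.22 (−log10 p 47.1) with DMSO, 6.72 with ATRA and 3.55 with Corin. The strongest lost with Corin, 72.8 kb downstream, had 3.73 with DMSO and 4.41 with ATRA. The strongest lost with ATRA, 79.6 kb downstream, had 3.21 with DMSO and 2.90 with Corin, and was missing with both compounds.

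All DMSO regions at HIC1 were called in every treatment list too, against genome losses of 25.4%, 28.4% and 31.6%. HIC1 lies on the plus strand of chromosome 17 at 2054154 to 2063241 (ENSG00000177374.13), and the stretch after it belongs to SMG6, which lies on the other strand and whose annotated end overlaps that of HIC1. DPH1, OVCA2 and RTN4RL1 also reach into the window. Its 19 regions were called 13 times with DMSO, 18 times with ATRA, 13 times with Corin and 17 times with both compounds. Called in all 4 lists were 13 regions (68.4%), against 41.1% in the genome. Gained were 5 of 18 (27.8%) with ATRA, 0 of 13 with Corin and 4 of 17 (23.5%) with both, against 23.3%, 17.8% and 16.6%. The share with ATRA was near that of the genome. The Corin list held the same 13 regions as the DMSO list.

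The 3 HIC1 regions (15.8% of 19, genome 3.2%) called in both lists with ATRA only lay within 6 kb of each other in SMG6. At 34.6 kb downstream of the HIC1 start (chr17:2089546-2089805) the folds were 3.26 (−log10 p 74.1) with ATRA and 2.13 (17.4) with both. At 36.3 kb they were 2.89 (49.4) and 2.13 (17.2), and at 40.1 kb (chr17:2095009-2095586) 5.10 (56.3) and 3.27 (22.7). All 3 had a higher fold with ATRA alone. Divided by the genome median ratio of both compounds to ATRA, 0.79, their ratios were 0.826, 0.932 and 0.812. The other ATRA gains, 17.7 and 56.7 kb downstream, had folds of 3.35 and 2.97 in that list alone, and the other gain with both compounds, 10.8 kb downstream, 1.78.

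At the HIC1 start (chr17:2054911-2055353) the fold was 3.41 with DMSO, 4.67 with ATRA, 2.49 with Corin and 3.61 with both, with −log10 p of 53.3, 181, 23.1 and 118. In the gene, 4.3 kb downstream, it was 9.55, 8.61, 9.48 and 8.48, with the Corin summit 672 bp from that of DMSO. The start was a weaker region than the one inside the gene in each list. At an SMG6 start 10.1 kb downstream it was 10.2, 7.09, 4.90 and 4.35, the lowest ratios to DMSO of the HIC1 window with Corin and with both compounds. At another SMG6 start, 32.7 kb downstream, it was 9.47, 5.73, 12.1 and 6.17, lower in the lists with ATRA.

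In that last region the pileup went the other way. In multiples of each list's most frequent background it was 33.0 with DMSO, 111 with ATRA, 38.5 with Corin and 61.2 with both, over local backgrounds of 3.41, 19.3, 3.12 and 9.86. The region 28.6 kb downstream, in an SMG6 intron (chr17:2083447-2084600), had nearly equal folds of 9.36, 9.59, 9.95 and 10.8. Its pileup was 30.6, 160, 31.0 and 98.2, and its −log10 p 235, 870, 253 and 884. Over the genome the median ratio of this pileup to DMSO was 1.51 with ATRA, 0.89 with Corin and 1.03 with both. Divided by these medians, the pileup ratios were 3.46, 1.14 and 3.13 at 28.6 kb. At 32.7 kb they were 2.24, 1.31 and 1.81. The fold alone does not show these differences, since pileup and local background were higher together in the lists with ATRA.

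The regions upstream of HIC1 differed by less than 1.5-fold between any of the lists. The start of RTN4RL1, 29.7 kb upstream, had folds of 7.93 with DMSO, 9.44 with ATRA, 10.1 with Corin and 9.84 with both, and a start of DPH1, 24.3 kb upstream, 12.9, 18, 13.4 and 16.1. The OVCA2 and DPH1 region, 13.1 kb upstream, had 14.8, 17.4, 17.1 and 15.1. At the start of the microRNA genes MIR132 and MIR212, 5.1 kb upstream, the folds were 10.4, 8.38, 11.2 and 9.86, lowest with ATRA. Downstream in SMG6, folds were 2.44, 2.05, 3.39 and 2.44 at 15.4 kb, 6.72, 7.40, 7.72 and 6.34 at 16.5 kb, 11.0, 9.99, 13.1 and 13.2 at 46.6 kb, and 4.20, 4.74, 6.58 and 5.05 at 57.8 kb. In the last window 37.6% of the stretches of 36 bases occur once in the genome, whereas 75 of the 78 summit windows were at 100%.

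Over the 3 genes together, gains were 21 of 60 regions (35%) with ATRA, 3 of 44 (6.82%) with Corin and 22 of 60 (36.7%) with both, against genome shares of 23.3%, 17.8% and 16.6%. Losses were 9 of 48 (18.8%), 7 (14.6%) and 10 (20.8%), against 25.4%, 28.4% and 31.6%. The combination list held 10 regions of 60 (16.7%) that the ATRA list lacked, against 15.4% in the genome, and lacked 10 of 60 (16.7%) that the ATRA list held, against 28.7%. Against Corin alone it held 20 more (33.3%), with a genome share of 20.4%, and lacked 4 of 44 (9.09%), with a genome share of 25.1%. Adding Corin to ATRA gave a share of new regions near the genome's, and adding ATRA to Corin a larger one. These comparisons share lists, so that they are not independent of each other. With lists cut to the same number of strongest regions, gains with Corin were 7 and losses 3 with ATRA, 2 with Corin and 5 with both. Genome shares for the cut lists are not given here, so these counts cannot be set against the shares above.

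**Figure D2:**
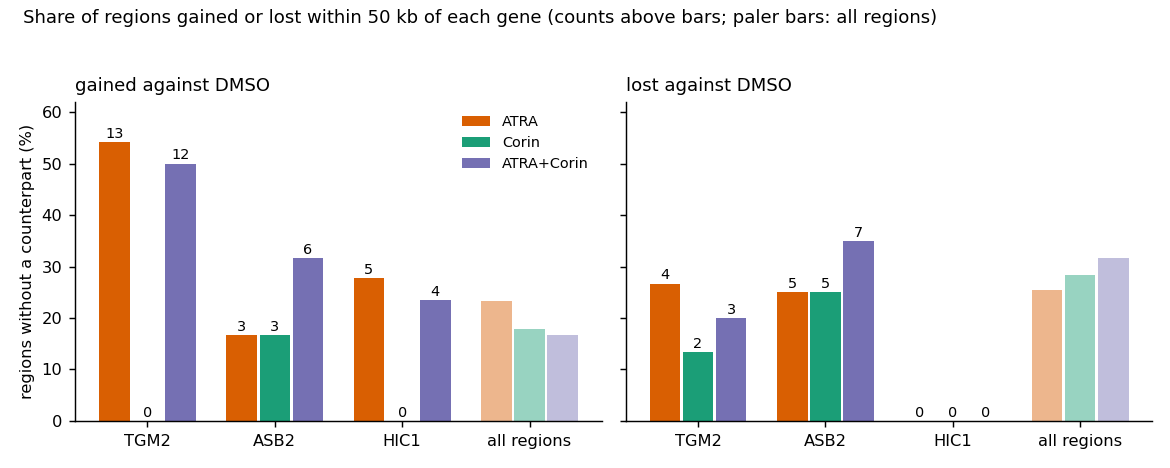
Share of regions gained (left) and lost (right) against DMSO for ATRA, Corin and both compounds, within 50 kb of each gene and over all regions (paler bars), in percent, with the number of regions above each bar. TGM2 gained 54.2% with ATRA and 50% with both compounds and 0 regions with Corin, and HIC1 lost 0 in all 3.

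Folds of regions called in both lists of a pair were read against the genome median of the same ratio, since that median was 1.26 for ATRA over DMSO, 0.94 for Corin and 1.02 for both. A ratio of at least 1.5 times this median was counted as higher, and its inverse as lower. With ATRA, 4 of 39 member regions were higher and 5 lower, against genome shares of 16.6% and 8.81%. With both compounds 2 of 38 were higher and 5 lower, against 8.27% and 12.1%. In fold at shared regions, the lists with ATRA thus showed no surplus of higher regions at these genes.

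With Corin, 10 of 41 member regions were higher and 3 lower, against genome shares of 6.35% and 10.8%. At TGM2 alone, 7 of 13 were higher with Corin and 0 lower, with a median ratio of 1.58. For comparison, the TGM2 median was 1.42 with ATRA and 1.16 with both. ASB2 had medians of 1.2, 0.904 and 1.1 for ATRA, Corin and both, and HIC1 1.02, 1.15 and 1.02. The TGM2 median with ATRA was 1.26 and 1.27 with flanks of 10 and 100 kb and 1.25 among regions in the stronger 50% of both lists, close to the genome's. The TGM2 median with Corin was 1.11 with flanks of 100 kb and 1.27 in that stronger 50%. Of the 13 TGM2 regions, 3 had a lower fold with Corin than with DMSO. TGM2 regions gained with Corin, 0 as counted here, were 2 with lists of equal length, 2 where a counterpart had to cover 50% and 1 with the limit of 5 on −log10 q. Genome shares of gains in those settings are not given here. Among regions whose summits lay within 200 bp of each other, 6 of 11 TGM2 regions were higher with Corin, against 6.49% in the genome. With ATRA, 3 of 35 member regions of this kind were higher and 5 lower, against 16.6% and 8.76%.

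For the combination over ATRA, where the genome median was 0.79, 7 of 50 member regions were higher and 4 lower, against 7.21% and 18.1%. Over Corin, with a genome median of 1.07, 4 of 40 were higher and 7 lower, against 9.72% and 8.98%. At TGM2 the combination was lower than Corin in 4 of 12 regions and higher in 1.

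**Figure D3:**
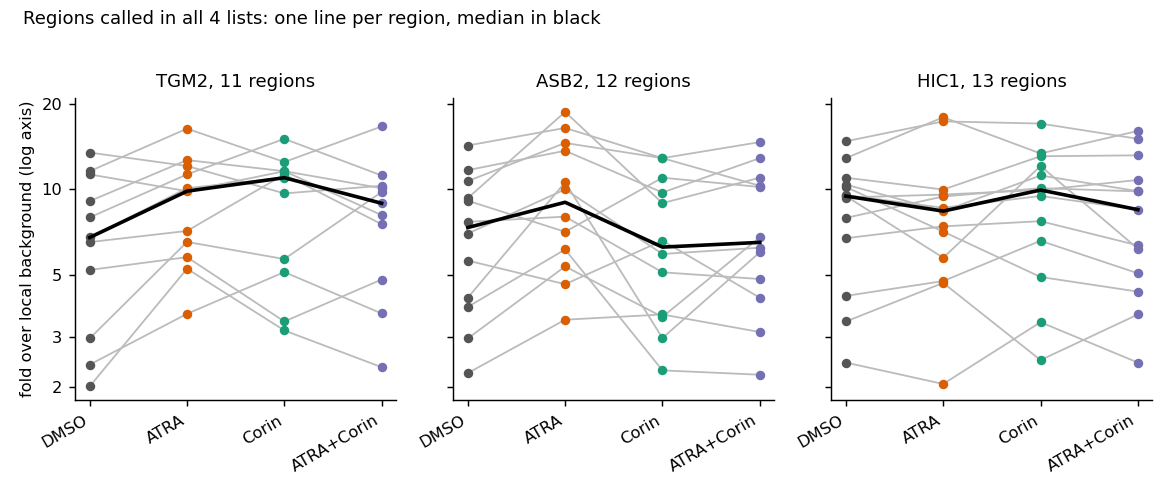
Fold over local background (log axis) in each list for the regions called in all 4 lists, 11 at TGM2, 12 at ASB2 and 13 at HIC1, with a grey line per region and the median in black. Regions whose summits lie apart between lists are included, lines of a gene cross each other, and the TGM2 region 45.8 kb upstream runs from 2.97 with DMSO to 9.79 with both compounds.

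The local background under the peaks differed more than the fold. For each peak the pileup and the local background were solved from the deposited fold and p, and divided by the most frequent background of the list, which serves as the level of a list where depth is unknown. The median local background at TGM2 was 2.36 with DMSO, 5.10 with ATRA, 2.77 with Corin and 4.51 with both. At HIC1 it was 2.63, 3.89, 2.51 and 3.72, and at ASB2 1.84, 1.19, 1.77 and 1.98. Over all regions it was 1.42, 1.47, 1.44 and 1.46. A local background is commonly a mean over a stretch around the peak, so neighbouring regions share it, and nearby peaks add to it.

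Of the TGM2 regions called in both lists, 11 of 11 had a local background at least 1.5 times the genome median ratio with ATRA and 12 of 12 with both compounds, against 12.5% and 4.36% of regions in the genome. At HIC1 it was 8 of 13 with ATRA and 8 of 13 with both, and at ASB2 1 of 15 and 2 of 13. With Corin alone it was 0 of 13 at TGM2, 0 of 15 at ASB2 and 0 of 13 at HIC1, against 1.23%. The median ratio to the genome at TGM2 was 3.55 with ATRA, 2.77 with both and 1.13 with Corin. At HIC1 it was 2.33, 2.05 and 0.938, and at ASB2 0.937, 1.02 and 0.979. TGM2 and HIC1 had a higher background in both lists with ATRA, and most ASB2 regions did not. Among regions with summits within 200 bp of each other it was 8 of 8 and 9 of 9 at TGM2 and 8 of 13 and 8 of 13 at HIC1. The genome shares among such regions were 12.5% with ATRA and 4.35% with both.

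The pileup at the summit, treated in the same way, had median ratios to the genome of 2.86 with ATRA, 2.02 with Corin and 3.04 with both at TGM2. At HIC1 they were 1.77, 1.19 and 1.80, and at ASB2 0.738, 1.05 and 1.09. At TGM2 the median pileup ratio was therefore above that of the genome in all 3 treatment lists, with a higher background in those with ATRA. With Corin, the pileup ratios to the genome of the 13 TGM2 regions ranged from 0.742 to 2.83. The Corin ratio to the genome was 1.01 at the region 1.6 kb upstream and 0.742 at that 51.6 kb downstream.

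The higher background reached beyond the windows. At TGM2 the ratio with ATRA was 4.39 at the start, and outside the window it was 1.72 to 2.02 between 55.9 and 59.4 kb upstream and 0.709 at 64.7 kb. Downstream it was 2.31 at 91.6 kb and 1 at 107.6 kb. It was above 1.5 again further upstream, at 1.73 and 1.72 at 122.8 and 126.9 kb. The median over the regions between 50 and 200 kb from TGM2 was 1 (25 regions). At HIC1 the 4 regions upstream of the start had ratios of 1.1, 1.23, 1.24 and 1.07, whereas those from the start to 46.6 kb downstream ranged from 2.28 to 5.30. The step therefore lay between 5.1 kb upstream of HIC1 and its start. Downstream, in SMG6, the ratio was 0.937 at 57.8 kb, 2.99 at 65.6 kb, 2.92 at 68.5 kb and 0.937 at 83.4 kb. Further on it was 2.04 at 102.3 kb, 2.15 at 119.9 kb and 2.37 at 159.9 kb, and its median between 50 and 200 kb was 1.63 (17 regions). The higher background at HIC1 thus went on into SMG6 beyond the window, and these values do not assign it to either gene.

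**Figure D4:**
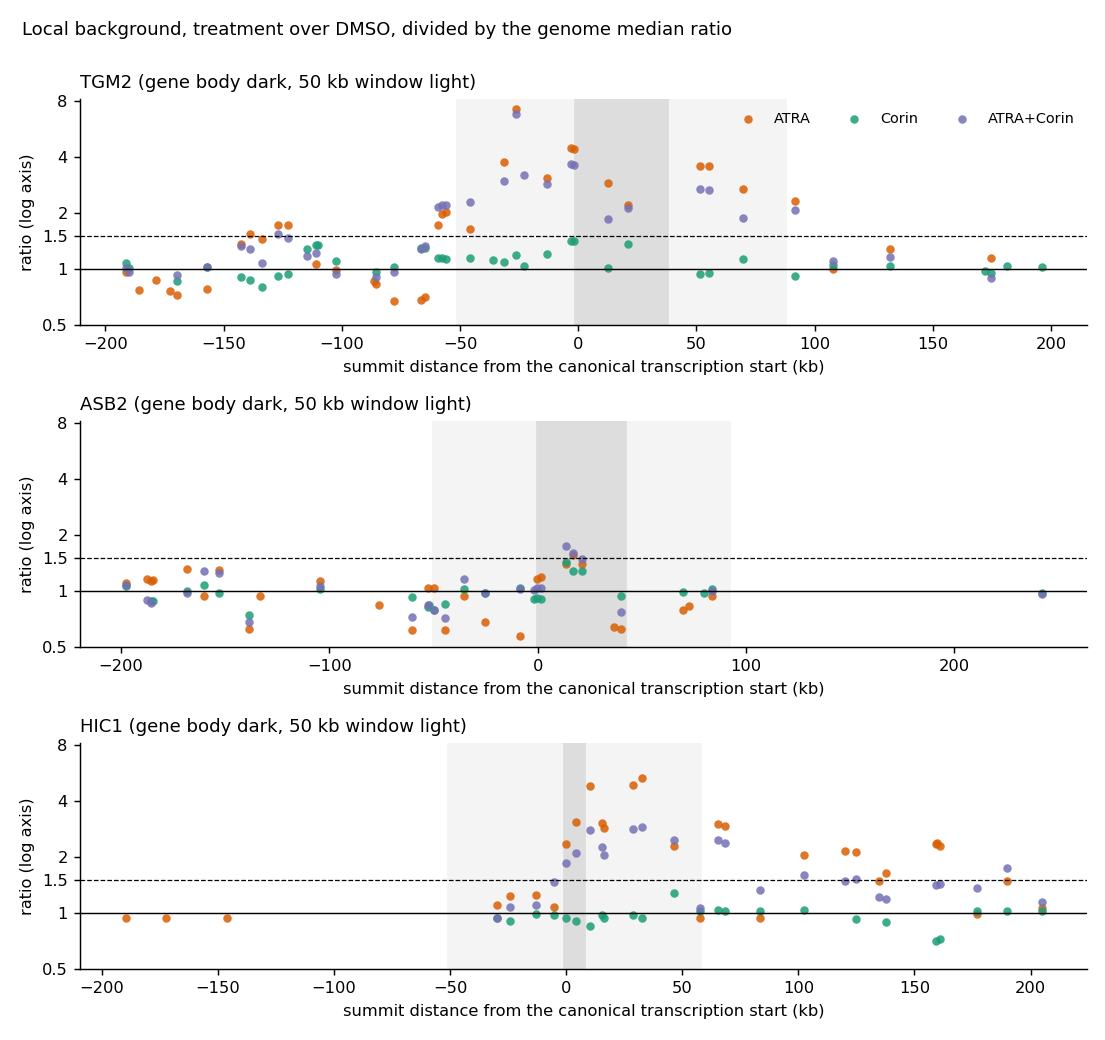
Local background of regions called in both lists, treatment over DMSO, divided by the genome median of that ratio (log axis), by summit distance from the canonical start of each gene (kb), with the window light and the gene body dark; the dashed line is at 1.5. Points of ATRA and of both compounds lie above the line across the TGM2 window and from the HIC1 start to 46.6 kb downstream, and points of Corin lie below it at all 3 genes.

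The count of regions called in both lists with ATRA only was set beside that of every coding gene, with the same 50 kb on either side. Of 20033 coding genes, 13789 had 0 such regions and 4418 had 1. TGM2 had 9, the highest number of any coding gene, shared with GMDS and PALLD. Their windows were longer, at 721.8 kb and 531.4 kb with 51 and 65 regions, against 139.2 kb and 31 regions at TGM2. At least 3 such regions, as at HIC1, were found at 521 genes (2.6%), and at least 1, as at ASB2, at 6244 (31.2%). TGM2 was thus at the top of the genes by this count, HIC1 in the upper few percent, and ASB2 among many. The count was not among the planned results, so that these ranks are a description and not a test. Genes with overlapping windows share regions, as TGM2 does with RPRD1B and KIAA1755. With 10 kb on either side in place of 50 kb, TGM2 had 4 such regions.

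**Figure D5:**
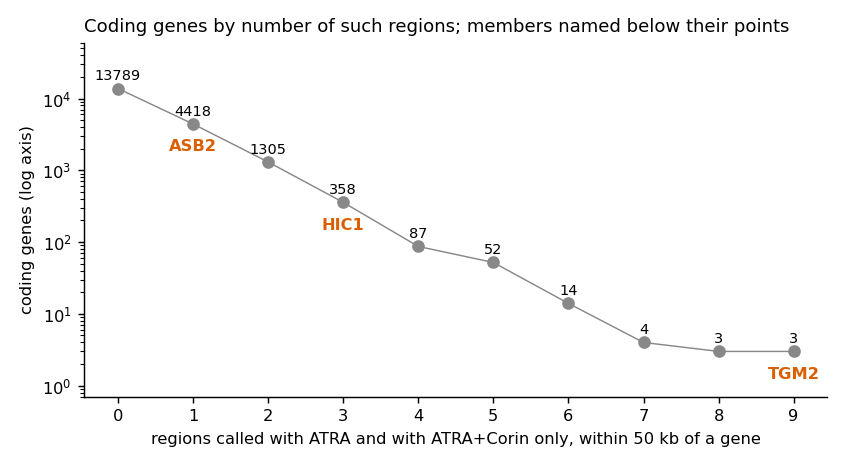
Number of coding genes (log axis) by the number of regions within 50 kb that were called with ATRA and with both compounds only; TGM2, ASB2 and HIC1 are named below their points. TGM2 stands at 9 with 2 other genes, HIC1 at 3 and ASB2 at 1.

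Among 16 other retinoid targets taken from general knowledge, gains were 30.8% of 221 regions with ATRA, 18.4% of 190 with Corin and 28.4% of 197 with both. Losses were 23.5%, 22.5% and 29.5% of 200 DMSO regions. Genome shares were 23.3%, 17.8% and 16.6% for gains and 25.4%, 28.4% and 31.6% for losses. The gains with Corin were thus near the genome share, as were the losses with ATRA and with both. The losses with Corin were below theirs. Regions called in both lists with ATRA only made up 20 of 315 (6.35%, genome 3.2%) and lay near 9 of the 16 genes. DHRS3, a retinal reductase that is itself induced by retinoic acid, had the most gains with ATRA, 11 regions, and 5 regions called in both lists with ATRA only, against 9 at TGM2. RARB, a retinoic acid receptor, had the most losses with ATRA, 12 of 30 DMSO regions, and 20 with both compounds.

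Retinoid receptor motifs were searched on both strands in windows of 200 bp at each summit, as direct repeats of AGGTCA or AGTTCA or GGGTCA or GGTTCA with spacers of 1 (DR1), 2 (DR2) or 5 bases (DR5). A DR5 match was found in 1 of 78 windows, that of HIC1 28.6 kb downstream shown above, against 0.0905% of all regions. DR1 and DR2 matches were found in 0 of 78, against 0.0719% and 0.170%. Over whole regions, DR1 and DR2 matched in 2 of 78 each (2.56%), against 0.32% and 1.14%, the DR1 matches 3.2 kb upstream of TGM2 and 32.7 kb downstream of HIC1. In the same setting, 3 of 19 HIC1 regions held a DR5, those shown above, against 0.252% of all regions, and 0 of the TGM2 and ASB2 regions did. With 1 mismatch allowed in a hexamer, windows of 200 bp held DR1 in 5, DR2 in 3 and DR5 in 4 of 78, against 1.5%, 1.73% and 1.36% of all regions. Of these 4 DR5 windows, 2 were at TGM2, 1.6 and 31.5 kb upstream. Another was at ASB2, 1.6 kb downstream, and 1 at HIC1, 28.6 kb downstream. The DR5 match 32.7 kb downstream of HIC1 overlaps a DR1 match. All 3 HIC1 matches lay in regions called in every list, and 0 of the 13 regions called in both lists with ATRA only held a DR5. Of all regions of that pattern in the genome, 0.484% held a DR5 in the 200 bp window and 0.774% over the whole region. With shares this low, 0 of 13 shows no difference from the genome. A match is a description of letters and not a site of binding, and its absence says nothing of the receptor.

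Motifs of myeloid factors were searched in the same windows. PU.1 (GGAAGT) matched in 19 of 78 (24.4%, genome 27.6%), AP-1 (TGANTCA) in 12 (15.4%, genome 12.2%) and C/EBP (TTGCNNAA) in 16 (20.5%, genome 14.5%). The TGM2 regions held 11 of the PU.1 and 11 of the C/EBP matches. Among the 13 regions called in both lists with ATRA only, PU.1 and C/EBP matched in 4 each. Of all regions of that pattern in the genome, 45.8% held a PU.1 match and 17.2% a C/EBP match. The TGM2 region 40.0 kb upstream held a PU.1 match and the ASB2 region 8.6 kb downstream both, as printed above.

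Summits of shared regions kept their place less closely at these genes than in the genome, as a description of few regions. Between the 4 lists the summit moved by a median of 49 bp over 11 TGM2 regions, 32.5 bp over 12 at ASB2 and 32 bp over 13 at HIC1, against 19 bp over 66303 regions. A move within 50 bp was seen in 54.5%, 66.7% and 61.5% of them, against 80.5%.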

How the data were processed

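ATAC-seq was measured in 8 samples of U-937 cells, 2 in each of 4 groups named by the treatment in the labels. Per the submitters' processing notes, cutadapt, Bowtie2, SAMtools, Picard and MACS2 were used with build hg38; versions and settings are not given in the sources used here. The authors deposited 1 narrowPeak list per group, made from combined samples. In the deposited lists the fold is a ratio the authors computed of pileup to local background, each with a pseudocount of 1 as the values show. The p and q columns hold −log10 values that the authors' peak calling gave each peak against that background, as deposited, and the last column gives the offset of the summit within its peak. Column values of other samples not used numbered 0.

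Overlapping peaks of a list were merged, and regions of the 4 lists joined where they overlapped by at least 1 bp. A region carries the values of its peak with the highest −log10 p. GENCODE release 44 gave genes, and all peak ends on 24 chromosomes lay inside hg38. RefSeq promoter sequences matched ASB2 only and were not used. Pileup and background were solved from fold and p with the Poisson distribution, and the pileup was whole within 0.05 in 99.96% to 99.98% of peaks, and 0 member peaks contradicted it; the method was tested on simulated data. Depth is unknown, and no interval or test was computed. Python 3.11.15, pandas 2.3.3, scipy 1.17.1 and pysam 0.24.0 were used.

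Regions to describe were set by a rule: those at a start of the gene, the 5 with the highest −log10 p, for each treatment the 3 largest and the 3 smallest ratios of fold to DMSO, the strongest gained and lost, and those with a direct repeat in the summit window. Other regions in the text were chosen after their values were seen. The counts of regions called in both lists with ATRA only, also over coding genes, were not among the planned results. The same holds for the counts of a higher local background. The genes, gene lists and rules were chosen with earlier results of these data known. Alternatives were other flanks, a limit of 5 on −log10 q, lists of equal length, peaks within 150 bp merged, a counterpart of 50%, the highest fold of a region, only regions in the stronger 50% of both lists, other motif windows, and, chosen after seeing the data, only regions with summits within 200 bp.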

Additional observations from a re-analysis of the deposited data

How the results depend on the processing

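No paired analysis was possible because each group has 1 list in which its samples are combined, and for the same reason no sample could be left out. The limit of 5 on −log10 q and the merging of peaks within 150 bp moved no count over the 3 genes by over 1.5 times, but the limit took TGM2 losses to 2 with ATRA, 0 with Corin and 1 with both, and TGM2 gains with Corin to 1. With flanks of 10 kb, regions called in both lists with ATRA only numbered 4 at TGM2 and 5 at the 3 genes. Gains and losses against DMSO were then 7 and 4 with ATRA (5 gains at TGM2), 1 and 4 with Corin, and 10 and 4 with both (5 gains at TGM2). The combination gained 6 and lost 3 over ATRA, and gained 9 and lost 0 over Corin. A higher local background was then seen in 4 regions at TGM2 and 5 at HIC1, with ATRA as with both. With flanks of 100 kb, gains with Corin were 6, and the combination lost 16 over ATRA and 7 over Corin. With lists of equal length, losses were 3 with ATRA, 2 with Corin and 5 with both, gains with Corin 7, and losses of the combination over ATRA 5. A counterpart of 50% gave 5 gains with Corin, and at ASB2 6 with ATRA and 10 with both. At ASB2, lists of equal length gave losses of 2, 2 and 4. Keeping only regions with summits within 200 bp, chosen after seeing the data, moved no median fold ratio or count of higher local background by over 1.5 times. In windows of 300 bp, DR1 matched in 1 and DR5 in 3 member regions. A limit of 2 for a higher local background, chosen after seeing the data, left 0 regions at ASB2 with ATRA and 0 with both. Divided by the genome median, the ATRA ratios of ASB2 and HIC1 were 0.948 and 0.813. Fewer regions enter with the shorter flanks and lists, and other causes were not tested. Genome shares under the limit on −log10 q, lists of equal length, merged peaks and a counterpart of 50% are not given here. Weak calls near a list's limit, such as the DMSO call 26.5 kb upstream of TGM2, decide gains and losses, and unknown depth limits all counts.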
